A study of Mus musculus with 2 samples.

Results

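Endothelial cells line the liver's blood vessels, and 54 of the 5805 cell barcodes kept from a pair of mouse liver libraries carried enough endothelial RNA to be gathered here. A barcode marks the RNA of 1 droplet, ideally 1 cell, and its counts are unique molecular identifiers (UMIs), each tagging 1 captured RNA molecule. A barcode was an endothelial barcode when it held at least 2 UMIs summed over 9 gate genes (Ptprb, Stab2, Flt1, Rasip1, Adgrl4, Tek, Mmrn2, Cdh5 and Kdr) and 0 UMIs of 4 exclusion genes, Ptprc of leukocytes, Dcn of fibroblasts and stellate cells, and Clec4f and Cd5l of Kupffer cells. These barcodes were chosen by measured UMIs of the same cells, so the gate genes are described without a test, and every level of another gene in them against the remaining barcodes is a description too.

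Most of the liver's vascular bed is the sinusoid, a fenestrated capillary without a full basement membrane, whose endothelium clears proteins, lipoproteins and immune complexes through scavenger receptors such as stabilins. The endothelium changes along the lobule, from arteries and portal veins through the sinusoids to the central vein, where Wnt ligands and Kit mark the cells. Inflamed endothelium displays adhesion molecules and chemokines that arrest leukocytes, and it answers interferons with guanylate-binding GTPases and antigen presentation genes.

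The study measured whole-liver RNA by droplet single-cell sequencing in wild-type (WT) C57BL/6J mice that were 4 weeks old when infected with an adeno-associated virus (AAV). The 2 groups were AAV-shBicd2, carrying a short hairpin against Bicd2, whose protein ties cargo to dynein, and its control AAV-scramble, with 1 library each. In both groups concanavalin A (Con A), a plant lectin that activates T cells and injures the mouse liver, was injected intravenously at 15 mg/kg 3 weeks after the virus, and the liver was taken 6 hours later, so no liver without Con A enters any comparison. The serotype, the promoter driving the hairpin, the cells the virus reached and the number of mice per library are not given in the sources used here.

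The library labelled shBicd2 held 3038 barcodes and 5624055 UMIs, and the library labelled scramble held 2805 barcodes and 5086306 UMIs. Kept were 3014 and 2791 of these barcodes, those in which 200 or more genes were detected and mitochondrial UMIs did not exceed 25%. With 1 library per group no difference between the groups has a replicate check, no test was made, and each 95% interval below covers counting error only. The targeted gene did not mark the libraries: Bicd2 had 0 UMIs in the endothelial barcodes of the shBicd2 library and 1 in those of the scramble library, both at or under the floor of 3 counts, and in all other barcodes it stood at 19.5 UMIs per 1000000 UMIs (CPM) in shBicd2 and 16.3 CPM in scramble.

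Endothelial barcodes were rare and shallow in both livers. They numbered 30 in the shBicd2 library, 0.995% of its kept barcodes (95% exact binomial interval 0.673 to 1.42%), and 24 in the scramble library, 0.860% (0.552 to 1.28%). The ratio of the shares, shBicd2 over scramble, was 1.16 with an exact interval of 0.654 to 2.07, which spans equality. Their median depth was 879 UMIs in shBicd2 and 895.5 in scramble, against 1511 and 1515 in the other barcodes of those libraries. Since a gate on UMIs depends on depth, each barcode was also thinned to 1000 UMIs, leaving out 861 shBicd2 and 758 scramble barcodes that were shallower; the gate then held 5 of 2153 barcodes in shBicd2 and 2 of 2033 in scramble, or 0.232% and 0.0984%, with a ratio of 2.36 (0.386 to 24.8). A difference in the share of endothelial barcodes was not detectable at this depth. Fewer endothelial cells and less endothelial RNA per cell cannot be told apart by such a gate. The libraries shared 3 barcode sequences, and 0 of them were endothelial barcodes.

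Rasip1, a Ras-interacting protein needed for blood vessel lumens, carried more than any other gate gene, with 46 UMIs in 26 of the 30 shBicd2 barcodes and 36 UMIs in 17 of the 24 scramble barcodes. Cdh5, the cadherin of endothelial junctions, had 14 UMIs in shBicd2 and 7 in scramble. Flt1, a receptor for vascular endothelial growth factor, had 12 UMIs in shBicd2 and 9 in scramble. The rest of the gate was sparse: Mmrn2, a secreted endothelial matrix protein, had 4 and 2 UMIs in shBicd2 and scramble, Ptprb, an endothelial phosphatase, 3 and 5, and Stab2, the sinusoidal scavenger receptor stabilin-2, 2 and 7. Tek had 1 and 0, Kdr 0 and 1, and Adgrl4 was at 0 in the endothelial barcodes of both libraries, with 2 UMIs in the other barcodes of each. Most Stab2 UMIs lay in other barcodes, 35 in shBicd2 and 31 in scramble. So did most UMIs of Rasip1 (53 and 43) and Cdh5 (32 and 10), while Flt1 had 13 and 8 there. By its UMIs in endothelial barcodes the gate rests mainly on Rasip1, Cdh5 and Flt1. In 12 endothelial barcodes of each library all gate UMIs came from 1 gate gene.

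Promoters of 4 genes are printed because Rasip1 and Flt1 carry the gate and because Adgrf5 and Olr1 stand near the top of the genes outside it. ETS-family factors are the textbook regulators of endothelial promoters, and the capitals mark each AGGAAG, a common ETS core, on either strand (its reverse complement reads CTTCCT). Each line holds the 250 bases before the transcription start in the gene's own direction, from RefSeq on GRCm38.p6. The windows lie at chr7:45627287-45627536 on the plus strand for Rasip1, chr5:147726012-147726261 on the minus strand for Flt1, chr17:43360181-43360430 on the plus strand for the first listed start of Adgrf5 and chr6:129507166-129507415 on the minus strand for Olr1.
Rasip1: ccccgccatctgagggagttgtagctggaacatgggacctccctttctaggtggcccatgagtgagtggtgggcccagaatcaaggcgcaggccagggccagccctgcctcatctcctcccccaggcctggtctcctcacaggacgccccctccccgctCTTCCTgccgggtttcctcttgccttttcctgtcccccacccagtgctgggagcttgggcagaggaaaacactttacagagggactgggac
Flt1: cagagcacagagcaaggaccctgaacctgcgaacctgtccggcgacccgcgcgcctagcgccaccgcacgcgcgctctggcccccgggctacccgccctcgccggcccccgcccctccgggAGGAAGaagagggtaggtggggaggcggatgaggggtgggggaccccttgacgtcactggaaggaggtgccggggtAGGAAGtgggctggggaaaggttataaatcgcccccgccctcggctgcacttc
Adgrf5: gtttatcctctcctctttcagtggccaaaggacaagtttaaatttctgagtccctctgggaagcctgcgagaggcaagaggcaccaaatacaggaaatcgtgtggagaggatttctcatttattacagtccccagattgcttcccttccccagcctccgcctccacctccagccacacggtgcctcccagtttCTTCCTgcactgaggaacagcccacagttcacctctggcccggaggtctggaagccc
Olr1: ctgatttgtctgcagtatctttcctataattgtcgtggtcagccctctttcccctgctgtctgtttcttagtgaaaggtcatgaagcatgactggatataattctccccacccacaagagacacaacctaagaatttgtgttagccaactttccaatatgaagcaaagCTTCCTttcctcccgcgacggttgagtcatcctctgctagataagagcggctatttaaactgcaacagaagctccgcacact
The Rasip1 window held 1 match, starting 91 bases before the start, the Flt1 window 2, at 129 and 53 bases, the Adgrf5 window 1, at 57 bases, and the Olr1 window 1, at 82 bases. A second listed start of Adgrf5 had 0 matches. Over all 27025 genes in the promoter table, 32.3% had a match in at least 1 window. Of the 30 leading genes outside the gate named below, 23 were in the table and 14 of them (60.9%) had a match, and of the gate genes 4 of 6. Counted per window, so that genes with several starts do not gain by their number, the shares were 17 of 34 (50%) for the leading genes and 29.5% for all windows. These letters describe the windows and do not show a factor's binding.

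Genes that the gate did not use followed the number of gate UMIs. In the shBicd2 library, 36 genes shared by all endothelium, such as Pecam1, Egfl7 and Tie1, summed to 96.4 CPM in barcodes with 0 gate UMIs, 186 CPM with 1, 1120 CPM with 2 and 3791 CPM with 3 or more. The scramble library gave 84.7, 162, 926 and 5460 CPM for the same steps. Just outside the threshold lay 120 shBicd2 and 75 scramble barcodes with 1 gate UMI, and just inside it 18 and 16 with 2. At 1 gate UMI the shared list already lay above its level at 0. Its intervals were 139 to 242 CPM against 87.9 to 106 CPM in shBicd2, and 107 to 236 against 76.4 to 93.6 CPM in scramble. At 2 gate UMIs it was several times higher again, so the rise was graded. Sinusoidal genes climbed over the same steps, to 2166 CPM in shBicd2 and 2012 CPM in scramble at 3 or more gate UMIs. In scramble their intervals at 1 and 2 gate UMIs overlapped, at 228 CPM (161 to 313) and 333 CPM (152 to 633). Hepatocyte markers did not follow the gate: at 3 or more gate UMIs they summed to 23289 CPM in shBicd2 and 15040 CPM in scramble, against 24635 and 18665 CPM at 0. The plot of gene lists by number of gate UMIs shows both behaviours side by side.

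**Figure D1:**
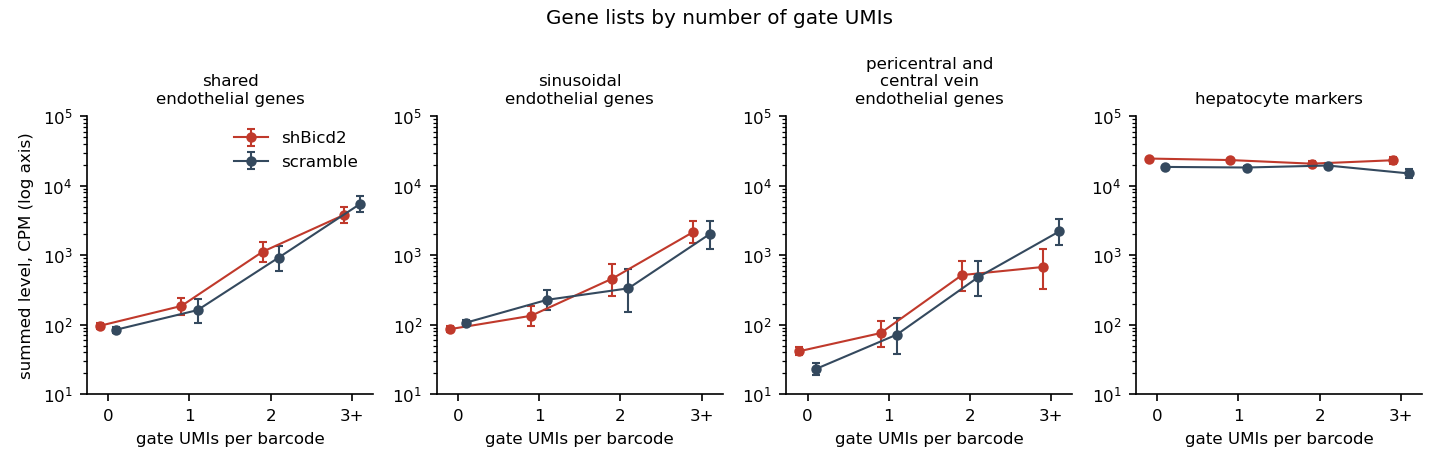
Summed level of 4 gene lists (CPM, log axis) in barcodes with 0, 1, 2 or at least 3 gate UMIs and no UMI of the exclusion genes, in the shBicd2 library (red) and the scramble library (dark blue). Points are levels and bars 95% exact Poisson intervals. The 3 endothelial lists climb with the gate, shared endothelial genes to 3791 CPM in shBicd2 and 5460 CPM in scramble, while hepatocyte markers stay between 15040 and 24635 CPM.

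The endothelial barcodes were not alike among themselves. Those under 1500 UMIs, 21 in shBicd2 and 17 in scramble, held shared endothelial genes at 4564 CPM in shBicd2 and 5065 CPM in scramble. Those with 1500 UMIs or more, 9 in shBicd2 and 7 in scramble, held them at 577 and 470 CPM, far below the shallow barcodes but above the 117 and 103 CPM of all other barcodes in those libraries. The deep barcodes nevertheless carried most of the RNA, with 32940 of 49593 UMIs in shBicd2 and 23415 of 37434 in scramble, and a single barcode gave 15.99% of the endothelial UMIs in shBicd2 and 14.3% in scramble. UMIs of shared, sinusoidal and pericentral endothelial genes outside the gate were at 0 in 2 barcodes of shBicd2 and 3 of scramble, and reached 23 UMIs in the richest shBicd2 barcode and 26 in the richest scramble barcode. Hepatocyte markers were also higher in the shallow barcodes, at 23659 CPM in shBicd2 and 25323 CPM in scramble, than in the deep ones, at 20461 and 14094 CPM. By the endothelial genes the name rests on the shallow barcodes more than on the deep ones, and both are kept below as the rule selects them. The plot of single barcodes shows the endothelial UMIs thinning out as depth grows.

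**Figure D2:**
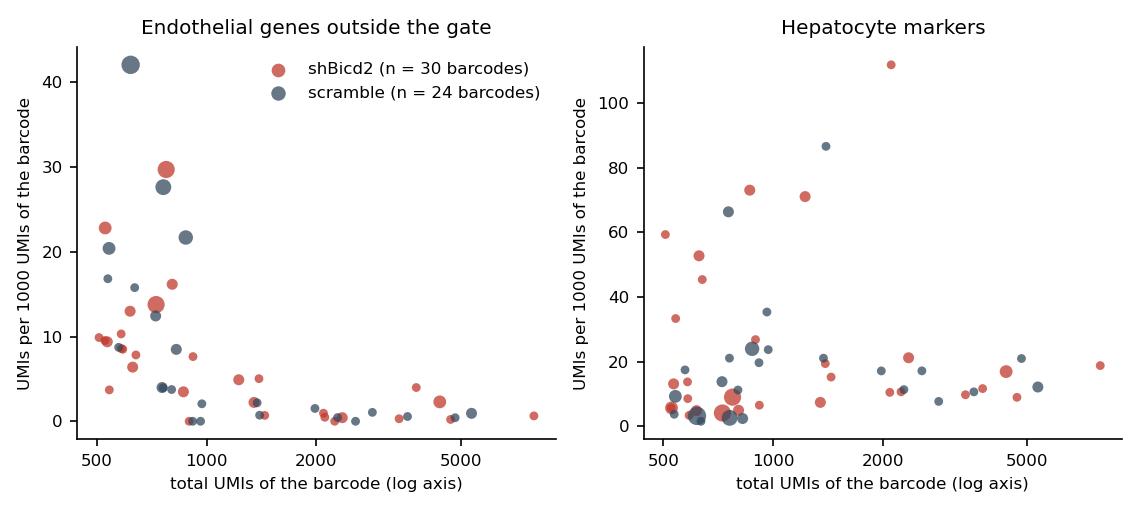
Each point is 1 endothelial barcode of shBicd2 (red, 30) or scramble (dark blue, 24), placed by its total UMIs (log axis) and by its UMIs of 3 endothelial lists outside the gate (left) or of hepatocyte markers (right), both per 1000 UMIs of the barcode. Larger points hold more gate UMIs, up to 7 in shBicd2 and 8 in scramble. Endothelial UMIs are densest in barcodes under 1500 UMIs, where 21 shBicd2 and 17 scramble points lie.

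Markers of other cells show what else these barcodes held. Hepatocyte markers summed to 21535 CPM in endothelial barcodes against 24461 CPM in all other barcodes of shBicd2, and to 18299 against 18405 CPM in scramble, and all 15 genes of the list had UMIs. Every endothelial barcode had some, from 2 to 236 UMIs in shBicd2 and from 1 to 121 in scramble. The source of these UMIs was not tested. T and NK cell markers (14 genes) and B cell markers (10 genes) were all at 0 in the endothelial barcodes of both libraries, where the floor of 3 counts is 60.5 CPM in shBicd2 and 80.1 CPM in scramble and the exact 95% Poisson upper limits are 74.4 and 98.5 CPM. Other barcodes of shBicd2 and scramble held T and NK markers at 20.2 and 11.7 CPM and B cell markers at 54.0 and 38.3 CPM. These levels lie under the floor, so a 0 cannot be told from the general level. The gate had also left out every barcode with a Ptprc UMI. Stellate and fibroblast markers had 6 UMIs in each library. They stood at 121 CPM in shBicd2 and 160 CPM in scramble, 1.60-fold (0.585 to 3.52) and 3.48-fold (1.26 to 7.69) over all other barcodes, against 1399 and 1477 CPM in the 28 and 11 barcodes with Dcn. Kupffer and macrophage markers stood at 827 CPM in shBicd2 endothelial barcodes against 740 CPM in others, and at 347 against 582 CPM in scramble, mostly Hmox1, which hepatocytes also make, and 7 of the 13 genes were at 0. Lyz2, the lysozyme of myeloid cells, had 7 UMIs in 2 shBicd2 barcodes and 0 in scramble, and Slc40a1, the iron exporter ferroportin, had 5 in 4 shBicd2 barcodes and 0 in scramble, 9.92-fold and 5.77-fold over other shBicd2 barcodes. Mesothelial markers appeared in 1 shBicd2 barcode, which held 7 of their UMIs, and in 0 scramble barcodes.

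**Figure D3:**
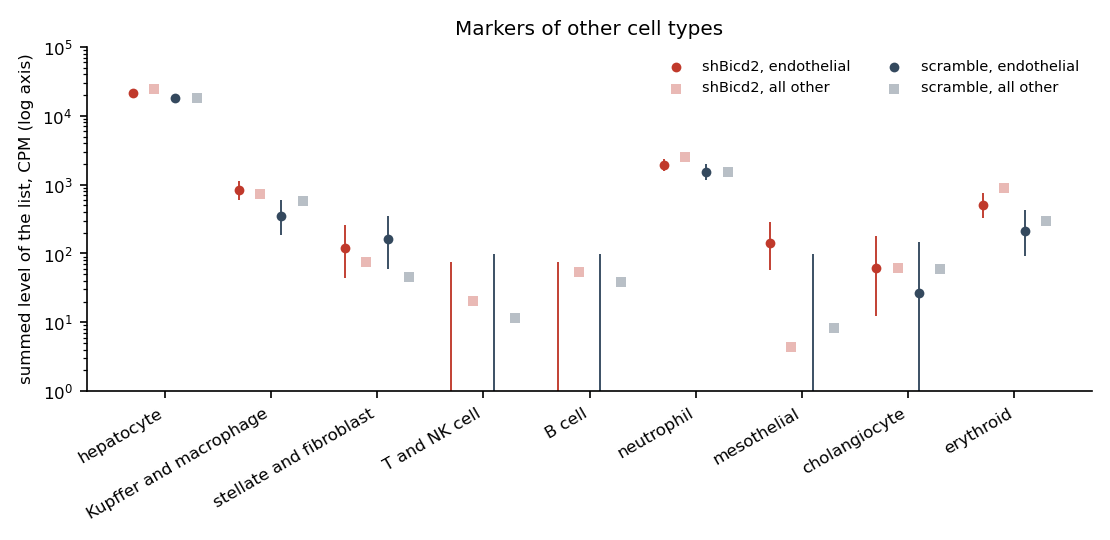
Summed level (CPM, log axis) of markers of 9 other cell types in endothelial barcodes (circles, with 95% exact Poisson intervals) and in all other barcodes (pale squares) of the shBicd2 (red) and scramble (dark blue) libraries. T and NK and B cell markers have an interval and no circle because they were at 0. Hepatocyte markers are the highest list in every group, from 18299 to 24461 CPM.

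Outside the gate, 51 of the 676 genes with at least 20 UMIs in endothelial barcodes were at least 2-fold higher there than in all other barcodes in each library (7.54%), and 1 gene was at least 2-fold lower (0.148%). The naming rule, which also asked for a lower interval bound over 1.5, was passed by 41 genes, and the 30 with the highest ratios are described here by role. Another 6 clone, mitochondrial or ribosomal names were left out, led by the noncoding clone Gm12840 with 122 UMIs and a 12.6-fold ratio (10.3 to 15.1). Mitochondrial UMIs were a median 1.30% of a barcode in shBicd2 endothelial barcodes and 0.752% in scramble ones, against 0.360% and 0.186% in other barcodes, and mt-Nd1 and mt-Cytb passed the size rule too. Ratios below are endothelial over other barcodes.

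The first group holds endothelial surface, junction and signalling genes. Adgrf5, an adhesion G protein-coupled receptor on mouse chromosome 17 (chr17:43360451-43459557, plus strand, GENCODE M21 on GRCm38), had the highest ratio of the 30 over both libraries together. It had 6 UMIs and 121 CPM in shBicd2 against 5.04 CPM in other barcodes, and 14 UMIs and 374 CPM in scramble against 4.57 CPM, a ratio of 47.7 (27.0 to 81.5). In shBicd2 alone its 24.0-fold was below the 41.6-fold of Cfap69 and the 36.2-fold of Olr1, and without the richest barcode of each library it was 31.5-fold over both libraries, against 37.5-fold for Cfap69. Tm4sf1, a small membrane protein of endothelial filopodia, had 12 UMIs in shBicd2 and 13 in scramble and was 33.1-fold higher (20.4 to 51.9). Egfl7, a secreted protein that endothelium deposits around itself, had 15 UMIs in shBicd2 and 6 in scramble and a ratio of 25.6 (15.2 to 41.2). Its scramble UMIs lay in 2 barcodes, 5 of them in 1. Without the richest barcode of each library the Egfl7 ratio was 16.1 (8.29 to 28.8), and in scramble alone 5.30 from 1 UMI. The adaptor Akap12 reached 35.4-fold, the Rap exchange factor Rapgef5 25.9-fold, and the gap junction protein Gja1 24.5-fold, each with at least 8 UMIs per library. Cfap69, known from cilia and sperm flagella, had 13 UMIs over 8 shBicd2 barcodes and 8 UMIs over 6 scramble barcodes and a ratio of 45.6 (26.3 to 76.6). No endothelial role is assumed for it. Gja1 and Rapgef5 were higher still in Dcn barcodes (699 and 196 CPM in shBicd2, 554 and 462 CPM in scramble), so neither sets endothelial barcodes apart from those.

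Of the 36 shared endothelial genes outside the gate, 30 had a UMI in endothelial barcodes and 6 were at 0. As a list they summed to 95 UMIs and 1916 CPM in shBicd2, 16.4-fold over other barcodes (13.1 to 20.3), and to 82 UMIs and 2191 CPM in scramble, 21.2-fold (16.6 to 26.8). The UMIs were spread over 26 of the 30 shBicd2 and 19 of the 24 scramble barcodes, and no barcode held more than 10 and 12. Dcn barcodes without gate UMIs held this list at 671 CPM in shBicd2 and 831 CPM in scramble. Barcodes with Ptprc, Clec4f or Cd5l and no gate UMI held it at 270 and 376 CPM. Pecam1, the junctional adhesion molecule CD31, had 12 UMIs (242 CPM) in shBicd2 and 7 (187 CPM) in scramble, against 11.2 and 8.53 CPM in other barcodes. The sphingosine 1-phosphate receptor gene S1pr1 had 6 and 9 UMIs in shBicd2 and scramble, against 6.66 and 18.1 CPM in their other barcodes, and Bcl6b, a transcriptional repressor, had 4 and 8. Transcription factors that define endothelium were barely captured: Erg and Fli1 had 0 UMIs in shBicd2 and 1 each in scramble.

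Scavenger and zonation genes of the liver's vascular bed come next, and the position of the barcodes in that bed was not tested. Olr1, the receptor for oxidised low-density lipoprotein LOX-1 (chr6:129485244-129507165, minus strand), was among the most abundant of the 30, with 44 UMIs in 11 shBicd2 barcodes and 30 UMIs in 11 scramble barcodes. It stood at 887 CPM against 24.5 CPM in other shBicd2 barcodes and at 801 against 26.2 CPM in scramble, a ratio of 33.6 (25.6 to 43.6). Stab1, the scavenger receptor stabilin-1 of sinusoids, had 20 UMIs in shBicd2 and 5 in scramble and was 22.4-fold higher (14.0 to 34.5). The other sinusoidal genes were thinner, with Lyve1, the hyaluronan receptor, at 3 UMIs in each library, Ehd3 at 6 in shBicd2 and 1 in scramble, and Dnase1l3 and Fcgr2b each at 0 in shBicd2 and 4 in scramble. The sinusoidal list of 21 genes, of which 16 had a UMI, was 9.56-fold higher in shBicd2 (6.97 to 12.9) and 6.40-fold higher in scramble (4.28 to 9.23). Without the richest barcode of each library the ratios were 7.08 and 4.55. The list was less far from other non-hepatocyte barcodes without gate UMIs. It stood at 968 CPM in shBicd2 and 801 CPM in scramble endothelial barcodes. Barcodes with Ptprc, Clec4f or Cd5l held 519 and 442 CPM, and Dcn barcodes 476 and 462 CPM.

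Among zones, pericentral and central vein genes had higher summed ratios than periportal and arterial ones, a gap that narrowed when Clu was left out of the periportal list, a choice made after seeing the data. Fabp4, the fatty acid-binding protein of capillary endothelium, had 13 UMIs in 12 shBicd2 barcodes and 18 UMIs in 10 scramble barcodes and a ratio of 29.2 (19.1 to 43.6). Kit, the receptor for stem cell factor, had 6 UMIs in shBicd2 and 7 in scramble, and Selp, the P-selectin that captures leukocytes, 4 and 5. Together the pericentral list was 11.5-fold higher in shBicd2 (7.49 to 17.0) and 33.9-fold in scramble (22.8 to 49.1), with 6 of its 12 genes detected. Fabp4 gave 31 of its 64 UMIs, and the Wnt ligand genes Wnt2 and Wnt9b had 0 UMIs in every kept barcode of both libraries. Fabp4 was not left out as Clu was below, so the zones were not compared with the largest gene of each list removed. Dcn barcodes without gate UMIs held the pericentral list at 336 CPM in shBicd2 and 185 CPM in scramble (2 UMIs). Endothelial barcodes held it at 565 and 962 CPM. The periportal and arterial list was 1.39-fold higher in shBicd2 (1.04 to 1.83) and 1.49-fold in scramble (0.990 to 2.16), and 27 of its 52 shBicd2 UMIs and 14 of its 28 scramble UMIs were Clu, a secreted chaperone at 544 CPM in shBicd2 and 374 CPM in scramble against 699 and 450 CPM in other barcodes. The other 16 periportal and arterial genes were together 9.21-fold higher in shBicd2 (5.86 to 13.9) and 7.36-fold higher in scramble (3.97 to 12.6), and in shBicd2 this interval overlaps the pericentral one. Gja4, a connexin of arterial endothelium within that list, had 10 UMIs in shBicd2 and 2 in scramble, against 6.12 and 6.15 CPM in other barcodes. Lymphatic genes were no higher than in other barcodes (0.509-fold in shBicd2 and 0.900-fold in scramble), nearly all from Prox1, which hepatocytes also express.

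**Figure D4:**
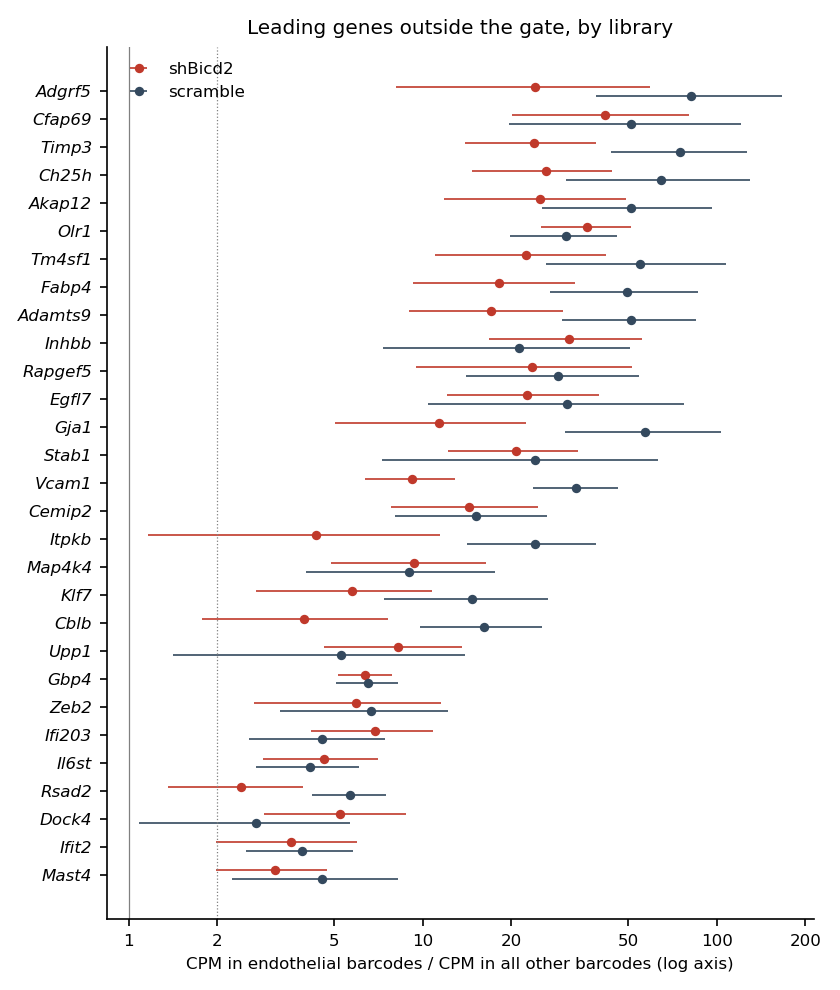
CPM in endothelial barcodes over CPM in all other barcodes (log axis) for the leading genes outside the gate, from Adgrf5 at the top to Mast4 at the bottom, with 1 of the 30 not shown, in shBicd2 (red) and scramble (dark blue). Points are ratios, bars 95% exact intervals that cover counting error only, and the dotted line marks 2-fold. Several genes at the top, such as Timp3 and Gja1, lie further right in scramble, while Olr1 and Gbp4 nearly coincide.

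Matrix, lipid and signalling genes form the next group. Timp3, an inhibitor of matrix metalloproteinases, had 20 UMIs (403 CPM) in shBicd2 and 24 UMIs (641 CPM) in scramble, against 16.9 and 8.53 CPM in other barcodes, and a ratio of 39.1 (27.2 to 55.3). Adamts9, a secreted protease that cleaves proteoglycans, had 14 UMIs in shBicd2 and 22 in scramble and was 29.2-fold higher, but it stood at 811 CPM in shBicd2 and 462 CPM in scramble Dcn barcodes, so it marks those as well. The basement membrane and matrix list of 13 genes was 2.60-fold higher in shBicd2 and 3.44-fold in scramble, at 1875 and 1817 CPM, while Dcn barcodes held 2657 and 1662 CPM. It includes Col4a1, a type IV collagen chain, with 18 UMIs in shBicd2 and 7 in scramble. Ch25h, the hydroxylase that turns cholesterol into an oxysterol, had 18 UMIs in shBicd2 and 13 in scramble (36.3-fold). Inhbb, a subunit of activin B, had 16 UMIs in shBicd2 and 6 in scramble (28.2-fold) and no UMI in Dcn barcodes of either library. Cemip2, a hyaluronidase of the cell surface, was 14.6-fold higher, the kinases Itpkb and Map4k4 were 13.6-fold and 9.20-fold higher, and the ubiquitin ligase Cblb was 8.47-fold higher. Uridine phosphorylase Upp1 (7.61-fold), the transcription factors Klf7 (8.78-fold) and Zeb2 (6.21-fold), Dock4 (4.01-fold) and Mast4 (3.601-fold) were also higher. Itpkb, Map4k4 and Klf7 stood higher still in Dcn barcodes, at 308, 531 and 224 CPM in shBicd2 and 831, 831 and 369 CPM in scramble. Endothelial barcodes held 80.7, 262 and 202 CPM in shBicd2 and 534, 240 and 321 CPM in scramble. Cblb stood at 196 CPM in shBicd2 and 462 CPM in scramble Dcn barcodes, against 181 and 561 CPM in endothelial ones. Cemip2 stood at 55.9 and 369 CPM in shBicd2 and scramble Dcn barcodes, against 302 and 374 CPM in endothelial ones. Barcodes with Ptprc, Clec4f or Cd5l held more Zeb2, at 706 CPM in shBicd2 and 574 CPM in scramble, against 181 and 294 CPM.

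Inflammatory genes of endothelium were abundant in these Con A livers, but most of them were abundant in the other barcodes too. Vcam1, the adhesion molecule that binds leukocyte integrins (chr3:116109949-116129688, minus strand), was an exception, beside Selp above. It had 37 UMIs in 10 shBicd2 barcodes and 47 UMIs in 12 scramble barcodes, or 746 and 1256 CPM, against 81.2 and 37.7 CPM in other barcodes, a ratio of 15.95 (12.55 to 20.05). Icam1, which binds other leukocyte integrins, had 39 UMIs in shBicd2 and 30 in scramble, only 1.55-fold and 1.61-fold over other barcodes. Cxcl9 and Cxcl10, chemokines induced by interferon gamma, stood at 2642 and 4255 CPM in shBicd2 and at 1683 and 3366 CPM in scramble, between 1.53-fold and 2.54-fold over other barcodes. The list of 16 adhesion and chemokine genes was 1.94-fold higher in shBicd2 and 1.69-fold in scramble. In shBicd2, 277 of its 751 UMIs lay in 1 barcode of 4681 UMIs, and without the richest barcode of each library the ratios were 1.36 and 1.43.

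Interferon-induced genes were led by Gbp4, a guanylate-binding protein, with 96 UMIs in 23 shBicd2 barcodes and 74 UMIs in 13 scramble barcodes. It stood at 1936 CPM in shBicd2 and 1977 CPM in scramble against 304 CPM in other barcodes of each library, a ratio of 6.43 (5.48 to 7.51), and Dcn barcodes held 1119 and 2401 CPM. In shBicd2, 33 of the 96 Gbp4 UMIs lay in 1 barcode of 4681 UMIs. Without the richest barcode of each library the Gbp4 ratio was 4.92 (4.08 to 5.90). Gbp4 shares its gene cluster and much of its sequence with other guanylate-binding protein genes, so some reads may be split between copies. The interferon gamma list of 18 genes was 1.77-fold higher in shBicd2 and 1.35-fold in scramble, with Iigp1, an immunity-related GTPase, present in 29 of 30 and 24 of 24 endothelial barcodes and also at 4167 and 4846 CPM in other barcodes. The shBicd2 barcode of 4681 UMIs held 171 of the list's 817 UMIs. Without the richest barcode of each library the list's ratios were 1.54 in shBicd2 and 1.32 in scramble. Ifi203, an interferon-inducible DNA-binding protein, was 5.48-fold higher (3.81 to 7.65), and Il6st, the signalling subunit shared by receptors of the interleukin-6 family, 4.23-fold (3.11 to 5.62). Neither sets endothelial barcodes apart from Dcn barcodes. Those held Ifi203 at 1846 CPM in shBicd2 and 5355 CPM in scramble, against 403 and 427 CPM in endothelial barcodes. Barcodes with Ptprc, Clec4f or Cd5l held Ifi203 at 582 and 972 CPM. Il6st stood at 504 and 1200 CPM in Dcn barcodes, against 444 and 721 CPM in endothelial ones. The type I interferon genes Rsad2 and Ifit2 also met the rule, at 4.17-fold and 3.64-fold, but 1 scramble barcode of 5343 UMIs held 44 of 51 Rsad2 and 24 of 25 Ifit2 UMIs, and 1 shBicd2 barcode of 4681 UMIs held 12 of 15 Ifit2 UMIs. Without the richest barcode of each library, Rsad2 was 1.47-fold higher over both libraries and Ifit2 stood at 0.412 of its level in other barcodes.

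Between the libraries, endothelial barcodes were compared shBicd2 over scramble, with the same ratio in all other barcodes of these libraries beside it. Of 1593 genes with at least 10 UMIs in endothelial barcodes, 269 were at least 2-fold higher in shBicd2 than in scramble (16.9%) and 231 at least 2-fold lower (14.5%), while 759 (47.6%) had a log2 ratio above 0 and the median log2 ratio was −0.06. Of the 30 leading genes, 3 were at least 2-fold higher and 7 at least 2-fold lower in shBicd2, and their median log2 ratio was −0.59. These genes were chosen by their level in the same barcodes, so their median is a description only.

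The shared endothelial list stood at 1916 CPM in shBicd2 and 2191 CPM in scramble, a ratio of 0.874 (0.644 to 1.19) against 1.13 in other barcodes. The sinusoidal list stood at 968 CPM in shBicd2 and 801 CPM in scramble, a ratio of 1.21 (0.750 to 1.97) against 0.808 in other barcodes. The pericentral list stood at 565 CPM in shBicd2 and 962 CPM in scramble, a ratio of 0.587 (0.345 to 0.989), while in other barcodes its ratio was 1.73. Without the richest barcode of each library the pericentral ratio was 0.633 (0.350 to 1.13), which spans 1. Its members Fabp4, Kit, Selp, Thbd and Car8 each had fewer UMIs in shBicd2 than in scramble, by 1 to 5 UMIs per gene, while the sixth detected member, Rspo3, had 2 in shBicd2 and 0 in scramble. Its difference from the sinusoidal ratio was not tested.

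Single leading genes with an interval that left out 1 included Vcam1, at 0.594 in endothelial barcodes (0.376 to 0.934) and 2.15 in other barcodes. Itpkb, the inositol trisphosphate kinase, had 4 UMIs in shBicd2 and 20 in scramble, a ratio of 0.151 (0.0375 to 0.451), and 0.834 in other barcodes. Without the richest barcode of each library Itpkb stayed at 0.149 (0.0277 to 0.528), with the UMIs spread over 4 shBicd2 and 11 scramble barcodes. Gja1 (0.400), Cblb (0.323), Adgrf5 (0.323) and Adamts9 (0.480) were lower in shBicd2 as well, against other-barcode ratios of 2.02, 1.33, 1.11 and 1.44. Gja1 stood at 0.523 (0.169 to 1.52) without the richest barcode of each library and Adamts9 at 0.559 (0.232 to 1.30), both spanning 1, while Cblb at 0.350 (0.121 to 0.911) and Adgrf5 at 0.137 (0.0148 to 0.630) did not. Stab1 was higher in shBicd2, at a ratio of 3.02 (1.10 to 10.3), and in other barcodes it stood at 19.5 CPM in shBicd2 and 5.56 CPM in scramble. Olr1, Gbp4, Ch25h and Map4k4 differed by less than counting error, with ratios of 1.11, 0.979, 1.05 and 1.09, against 0.935, 0.999, 2.59 and 1.05 in other barcodes.

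The naming rule between libraries (at least 15 UMIs, at least 2-fold and an interval that leaves out 1) took in 92 higher and 84 lower genes, of which 17 in each direction lay under their level in the other barcodes of the library where they were higher and are only counted. Their share among all genes with at least 15 UMIs is not given, so neither count is read as an excess. Slpi, a secreted inhibitor of leukocyte proteases, led the higher side with 33 UMIs in 7 shBicd2 barcodes (665 CPM) and 0 in scramble, at least 8.30-fold higher when scramble is set at the floor of 3 counts per library. The 95% exact lower limit of the ratio, which allows for counting error in both libraries, was 6.38, and 4.02 without the richest barcode of each library, against a ratio of 2.49 in other barcodes. Of the 33 Slpi UMIs, 12 lay in 1 barcode of 2248 UMIs. That barcode held 24 hepatocyte marker UMIs and 0 UMIs of the shared, sinusoidal and pericentral endothelial genes outside the gate. Actn4, an actin-bundling alpha-actinin, had 17 UMIs in 11 shBicd2 barcodes and 0 in scramble, at least 4.28-fold higher against the floor and with an exact lower limit of 3.11, against 1.59 in other barcodes. Sat1, which acetylates polyamines, stood at 2863 CPM in shBicd2 and 267 CPM in scramble, a ratio of 10.7 (5.66 to 22.8) against 2.20 in other barcodes. Without the richest barcode of each library it was 12.2. Tmsb10, which sequesters actin monomers, had a ratio of 11.3 from 30 and 2 UMIs in shBicd2 and scramble, against 3.77 in other barcodes. Nr1d1, the clock repressor REV-ERB alpha, had 11.3 from 45 and 3 UMIs, against 2.09.

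The remaining higher genes were Adm, Eif1, Ccn1, Pik3r1, Higd1a, Hsp90aa1, Kif1b, Atf3, S100a10 and Cxadr, with ratios from 6.04 for Cxadr to 21.1 for Adm and 5 or fewer UMIs each in scramble. All 10 were higher in the other barcodes of shBicd2 as well, by ratios from 1.21 for Higd1a to 4.37 for S100a10. For Hsp90aa1, a cytosolic chaperone, 41 of the 54 shBicd2 UMIs lay in 1 barcode, and without the richest barcode of each library its ratio was 3.52 (0.967 to 19.3). For Adm, the vasodilator adrenomedullin, 15 of 28 UMIs lay in 1 shBicd2 barcode, and for Ccn1 8 of 16. Without their richest shBicd2 barcode, Hsp90aa1, Adm, Ccn1 and Cxadr stood at 0.351, 0.735, 0.856 and 0.971 of their level in other shBicd2 barcodes. The naming rule gives genes under that level only as a count, so their place here depends on 1 barcode each. The rest of these genes stayed above it.

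On the lower side, Nlrp12, a cytosolic innate immune receptor, had 2 UMIs in shBicd2 and 15 in scramble, a ratio of 0.101 (0.0112 to 0.433), against 0.442 in other barcodes. Rnf103, Rbfox2 and Sav1 likewise had 2 UMIs each in shBicd2 and 14, 14 and 13 in scramble, against ratios of 0.532, 0.700 and 0.753 in other barcodes. Insr, the insulin receptor, had 9 UMIs in shBicd2 and 28 in scramble (0.243, against 0.417 in other barcodes), and Socs2, a brake on growth hormone signalling, 8 and 27 (0.224, against 0.239). Gramd3, Pikfyve, Phf3, Ppp1r3b, Aff4 and Ptbp3 had 3 or 4 UMIs in shBicd2 and 12 to 15 in scramble, and of these Phf3 was not lower in other barcodes (1.16). Rsad2 (0.237, against 0.559 in other barcodes) and Usp18 (0.252, against 0.373) belong to the type I interferon response and owe their place to the 1 scramble barcode that held 44 of 51 and 18 of 24 of their UMIs. Without the richest barcode of each library their ratios were 1.43 (0.530 to 4.23) and 0.710 (0.190 to 2.65), and in barcodes under 1500 UMIs Rsad2 was 2.24-fold higher in shBicd2.

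Gene lists give the same contrast by pathway, here as medians of log2 ratios over members with at least 10 UMIs, for the 13 lists with at least 3 such genes. The median was above 0 in 8 of the 13. Of all 1593 genes with at least 10 UMIs, 47.6% had a log2 ratio above 0. At least 2-fold higher were 16.9% and at least 2-fold lower 14.5%. Immediate early and heat shock genes had the highest median, 1.80 against 0.64 in other barcodes, with 11 of 11 genes higher in shBicd2 and 7 at least 2-fold higher. Its size depended on the processing. Across the alternative settings this median, written as a fold and not as log2, ran from 1.08 to 3.82 and stayed above 1. Jun had 80 UMIs in shBicd2 and 14 in scramble, Junb 192 and 63, and Jund 80 and 17. These genes encode subunits of the transcription factor AP-1, of which Fos had 8 and 5 UMIs in shBicd2 and scramble, a ratio of 1.21 (0.348 to 4.69), and Fosb had 0 in both. The list summed to 11816 CPM in shBicd2 and 4247 CPM in scramble, a ratio of 2.78 (2.33 to 3.34) against 1.81 in other barcodes, and 2.48 (2.03 to 3.06) without the richest barcode of each library, which in shBicd2 held 162 of 586 UMIs. Type I interferon genes had the lowest median, −1.25 against −1.07 in other barcodes, with 6 of 8 at least 2-fold lower. Their summed ratio was 0.458 (0.352 to 0.593), but 119 of the 160 scramble UMIs lay in the barcode that carried Rsad2, and without the richest barcode of each library it was 1.32 (0.894 to 1.99).

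Antigen presentation genes were higher in shBicd2 for 8 of 9 members, with a median log2 ratio of 0.51 against 0.22 in other barcodes. The share with a log2 ratio above 0 was 47.6% over all 1593 genes with at least 10 UMIs. H2-K1, a class I heavy chain, stood at 4497 CPM in shBicd2 and 2939 CPM in scramble, a ratio of 1.53 that its other barcodes shared (1.53). Class I genes resemble each other closely, and reads may be split among them. Adhesion and chemokine genes had a median of 0.34 against 0.02 in other barcodes, with Ccl2, a monocyte chemoattractant, at 59 UMIs in shBicd2 and 14 in scramble, a ratio of 3.18 (1.75 to 6.17) against 3.51 in other barcodes. Both medians turned negative under a gate of 3 UMIs (−0.26 for antigen presentation and −1.47 for adhesion and chemokine genes), and the adhesion median was −0.69 with 2 different gate genes. Interferon gamma genes were split, 7 higher and 7 lower, at a median of 0.08 against −0.21 in other barcodes. TNF and NF-kB genes had a median of −0.32 against −0.0018 in other barcodes with 5 of 14 higher, including Nfkbia at 1.84 (1.20 to 2.87) against 1.44, while Bcl3 was at 0.266 (0.0860 to 0.708) against 0.929 in other barcodes. Hepatocyte markers had a median of 0.56 against 0.46 in other barcodes, and their part in the other lists was not tested. Motor genes of the dynein and dynactin complexes, the machinery Bicd2 works with, had a median of −0.12 over 4 genes, 2 higher and 2 lower, against 0.14 in other barcodes.

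**Figure D5:**
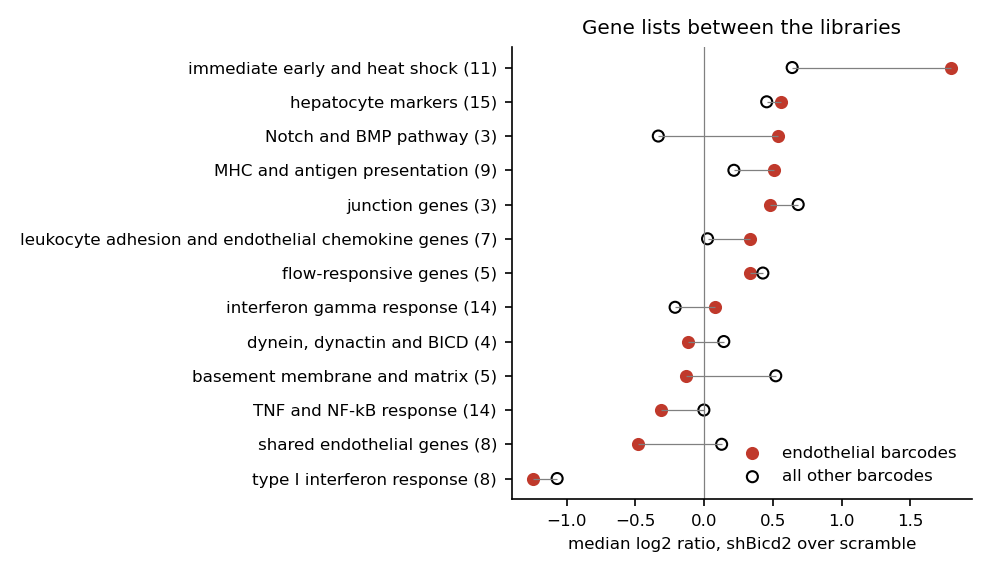
Median log2 ratio, shBicd2 over scramble, of the 13 gene lists with at least 3 measured genes (number in brackets), in endothelial barcodes (red) and in all other barcodes of the same libraries (open circles). The lists run from immediate early and heat shock genes (1.80) at the top to type I interferon genes (−1.25) at the bottom. The shared endothelial list lies below 0 in endothelial barcodes (−0.48) and above 0 in the others (0.13).

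The reporter and receptor features close the account. EGFP, counted as a feature of its own, had 16 UMIs in shBicd2 endothelial barcodes (323 CPM) and 1 in scramble ones (26.7 CPM), against 891 and 67.5 CPM in other barcodes, so it stood at 0.362 (0.207 to 0.589) and 0.396 (0.00999 to 2.22) of the level elsewhere. Nrp1, a co-receptor for vascular endothelial growth factor and semaphorins, had 5 UMIs in shBicd2 (101 CPM) and 9 in scramble (240 CPM), a ratio of 0.419 (0.110 to 1.39), while in other barcodes it stood at 33.5 CPM in shBicd2 and 270 CPM in scramble, a ratio of 0.124 (0.106 to 0.145). In shBicd2 Nrp1 was 3.01-fold higher in endothelial than in other barcodes (0.966 to 7.15), and in scramble 0.891-fold (0.407 to 1.70).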

How the data were processed

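Raw UMI counts per gene and barcode were deposited by the authors as 1 matrix per library, with 32287 features. Per the labels' protocols the libraries came from the 10x 3' kit v3.1. Cell Ranger 6.1.2 stands in the file headers, while the submitters' processing notes name Cell Ranger 6.0.1, Seurat 4.0.3 and mm10; the handling of multiply mapped reads is not stated there. Counting in such files is per UMI, so PCR copies are collapsed.

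From the counts, barcodes passing 200 genes and staying within 25% mitochondrial UMIs were kept (3014 in shBicd2, 2791 in scramble), and UMIs were summed over endothelial and other barcodes of each library and divided by their total UMIs (CPM). Doublets were kept; Scrublet (scanpy 1.11.5), at 0.8% per 1000 barcodes, marked 2 shBicd2 and 1 scramble endothelial barcodes and removed 73 and 62 of all. Levels have exact Poisson, shares exact Clopper-Pearson and ratios exact conditional binomial 95% intervals (scipy 1.17.1), all covering counting error only. Log2 ratios for medians add 0.5 counts, and a count of 0 was set at a floor of 3 counts. No tests were made, with 1 library per group. The summing and ratio code was tested on simulated data.

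Named genes against other barcodes were the 30 with the highest ratio outside the gate among those with at least 20 UMIs, at least 2-fold in each library and a lower bound over 1.5; 1 of them is counted but not reported here. Between libraries they were up to 15 in each direction with at least 15 UMIs, at least 2-fold and an interval that leaves out 1, excluding genes under their other-barcode level where higher. Mitochondrial, ribosomal, haemoglobin, immunoglobulin and clone names were left out. Gate genes, EGFP, Bicd2, Nrp1 and members of the 28 lists could also be named. The endothelial barcodes, rules and lists were chosen with earlier results of these data known. Alternatives covered the gate, filters, doublets, depth, TMM factors (edgeR 4.0.16 in R 4.3.3), minimum UMIs, the barcodes compared with and subtraction of free RNA. Coordinates are from GENCODE M21 on GRCm38, where 32158 of the 32287 feature IDs were found.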

Additional observations from a re-analysis of the deposited data

Results flagged for a closer look

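For 8 genes the level in endothelial barcodes over that in other barcodes ran in opposite directions in the 2 libraries, each with a counting interval that leaves out 1. The share of such genes among all genes examined is not given, so the count of 8 is not read as an excess. The difference between the libraries was not tested, and with 1 library per group it has no replicate check. Higher in endothelial barcodes of shBicd2 and lower in those of scramble were the metallothionein Mt1 (1.25 and 0.699), the insulin-like growth factor binding protein Igfbp1 (1.23 and 0.624), the clock repressor Nr1d1 (1.81 and 0.333), the translation factor Eif1 (1.65 and 0.164), the histone gene H3f3b (1.34 and 0.751) and the polyamine acetylase Sat1 (1.23 and 0.251). The reverse held for Cald1, which makes the actin-binding protein caldesmon (0.528 in shBicd2 and 2.58 in scramble), and for the nuclear noncoding RNA Malat1 (0.907 and 1.31). The UMIs behind them run from 22 for Cald1 and for Eif1 to 3004 for Malat1, over both libraries. Without the barcode with the most UMIs of the gene in each library, a choice added after seeing the data, 3 of the 8 (Mt1, Igfbp1 and Malat1) still ran in opposite directions with intervals that leave out 1. For 4 of the other genes the shBicd2 ratio then spanned 1: 1.03 (0.835 to 1.25) for Sat1, where 42 of 142 shBicd2 UMIs lay in 1 barcode, 1.29 (0.871 to 1.85) for Nr1d1, 1.36 (0.776 to 2.22) for Eif1 and 0.988 (0.889 to 1.09) for H3f3b, where 184 of 550 did. For Cald1 the scramble ratio did, at 1.68 (0.671 to 3.47).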

How the results depend on the processing

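No paired analysis was possible because each group has 1 library. Limits: 54 endothelial barcodes and 87027 UMIs leave many genes under 20 UMIs, the gate rests mainly on Rasip1, and deep barcodes weigh more in every sum. The cause of the changes below was not tested.

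The share ratio lay between 1.03 and 1.40 under 9 alternatives and was 2.36 (log2 1.24) after thinning. The 51 genes at least 2-fold higher than in other barcodes became 31 with a gate of 1 UMI, 23 with 3, 24 with at least 500 genes per barcode, 29 with TMM factors, 533 with a minimum of 1 UMI and 9 with 50. The 269 higher and 231 lower genes between libraries became 1002 and 622 with a gate of 1 UMI, 76 and 102 with 3, 173 and 117 with 2 different gate genes, 77 and 71 in barcodes under 1500 UMIs, 3377 and 2397 with a minimum of 1 UMI and 42 and 21 with 50; these settings change how many genes are counted. Lists with a median above 0 numbered 8, but 3 with a gate of 3 UMIs, 2 with 2 different gate genes and 5 with a minimum of 50 UMIs. With a gate of 3 UMIs the adhesion and chemokine median was −1.47 and the antigen presentation median −0.26, and with 2 different gate genes the adhesion median was −0.69 and the hepatocyte median −0.058. The TNF and NF-kB median was 0.13 with free RNA subtracted. Rsad2 between libraries was 1.17 (log2) in barcodes under 1500 UMIs and 0.52 without the richest barcode of each library, and Ifit2 against other barcodes was −1.28 without it; this last choice, the 1500 UMI limit, equal weights and the removal of the mesothelial barcode were added after seeing the data. Of the alternatives for ratios against other barcodes, 312 stayed within the counting interval, 109 moved out of it without changing sign and 1 changed sign.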
